A study of Homo sapiens with 5 samples.

Results

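Genes of the matrix metalloproteinases (MMP), the ADAMTS proteases and the tissue inhibitors of metalloproteinases (TIMP) were examined in GFP-SAS, a squamous cell carcinoma line of the human tongue that carries green fluorescent protein. Genes were taken by symbol (MMP, ADAMTS or TIMP followed by a number), and 44 of the 18239 genes with a value were members. They comprised 22 MMP, 18 ADAMTS and 4 TIMP genes. ADAMTS7, MMP23A and MMP23B had no value from a probe set that named them alone. Cells of every group were of the same line and were treated for 24 h. Treatments were siAURKA-1 or siAURKA-2 (siRNAs to AURKA, 10 nM each), MLN8237 at 100 nM (alisertib, an inhibitor of the Aurora A kinase that AURKA encodes), the non-targeting siNT and the vehicle DMSO. Each of these 5 groups was measured on 1 Affymetrix GeneAtlas array, so no value has a replicate error and no test of a difference was possible.

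MMPs are zinc endopeptidases that are made as inactive precursors and, once activated, cleave collagens, other matrix proteins and cell surface proteins. ADAMTS proteases are secreted relatives with thrombospondin motifs, among them enzymes that cleave proteoglycans such as versican and enzymes that trim procollagen. TIMPs bind the active site of these proteases, and in squamous carcinoma the balance of proteases and inhibitors is studied for its part in invasion.

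The values are log2 signals that had been centred for each probe set, so that 0 is the median of the 5 arrays. They compare arrays for 1 gene and carry no expression level, so they do not show which members the cells express, rank members by abundance or allow a check of the labelled cell type by its markers. A gene with little or no transcript would appear as a row of values near 0. A difference of 1 on this scale is 2-fold, and genes were counted at 2-fold and at 1.5-fold. AURKA itself was 10.3-fold below siNT on the siAURKA-1 array and 6.24-fold below it on the siAURKA-2 array. Of 7 squamous epithelial markers 5 had a value. With siAURKA-2 their median difference from siNT was -0.46, and 2 markers were at least 2-fold lower, where 0.872% of all genes were. With siAURKA-1 the median was 0.32, and 0 markers differed by 2-fold, where 1.96% of all genes did. The 6 fibroblast markers differed from siNT by at most 0.09 with either siRNA. Over both siRNAs, the 5 leukocyte markers differed from siNT by -0.16 to 0.09 and the 4 endothelial markers by -0.03 to 0.12.

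Most members hardly varied. In 28 of 44 (63.6%) the highest and the lowest array lay within 1.2-fold of each other, as they did in 56.7% of all genes, and the median range over the arrays was 0.19 for members and 0.22 for all genes. At the other end, 5 members (11.4%) spanned at least 2-fold over the arrays, against 4.89% of all genes. These were ADAMTS1, ADAMTS6, MMP1, TIMP2 and TIMP4. At least 1.5-fold was spanned by 10 members (22.7%), against 16.2% of all genes. Those of the 10 that did not reach 2-fold were ADAMTS12, MMP3, MMP14, TIMP1 and TIMP3. The siAURKA-1 array alone was highest in 13 members (29.5%), against 27.8% of all genes, and siAURKA-2 alone in 4 (9.09%), against 23.6%. The siNT array alone was highest in 13 members as well, against 18.9% of all genes. The MLN8237 array alone was lowest in 12 members (27.3%), against 19.3% of all genes.

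**Figure D1:**
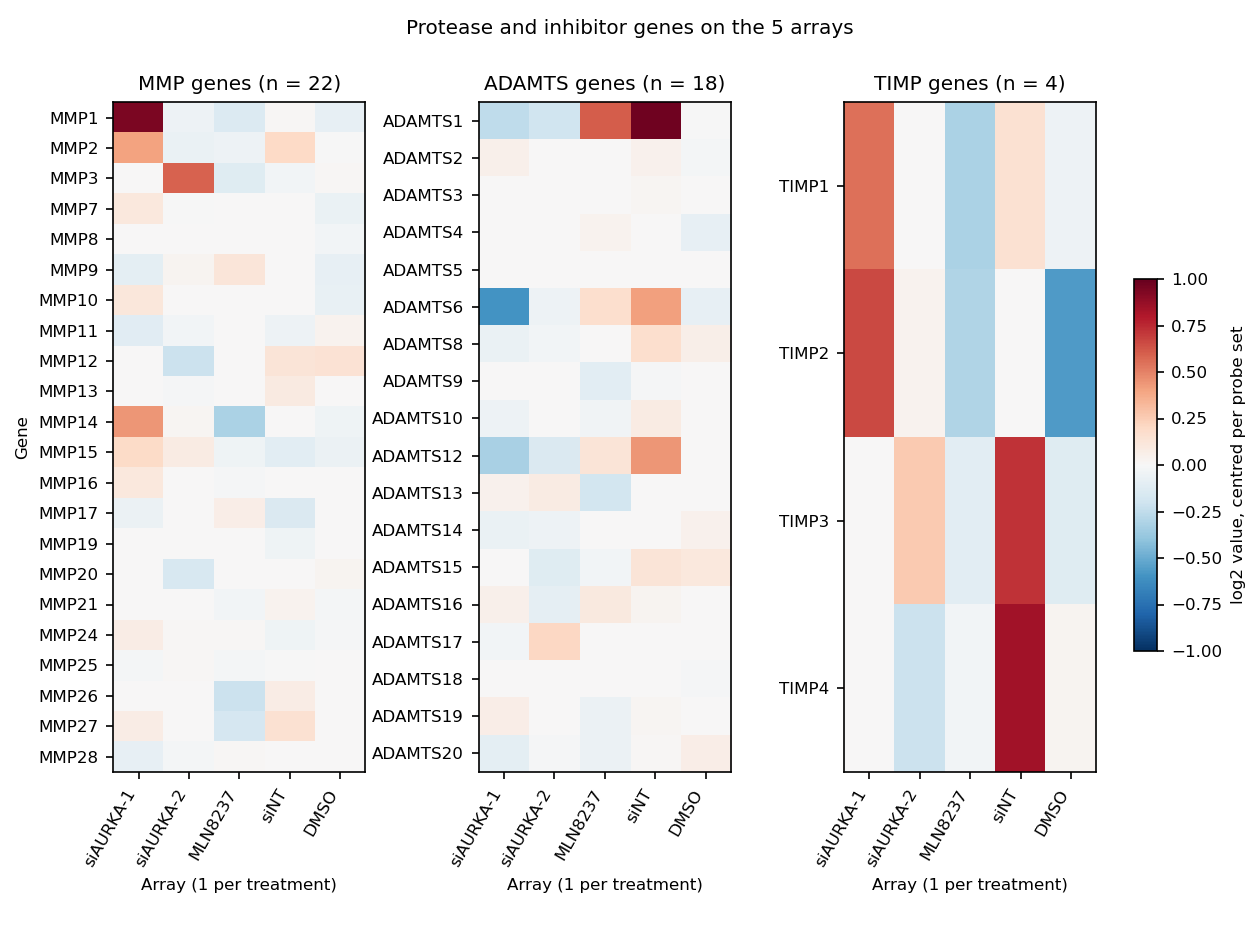
Centred log2 values of the 44 members (rows) on the 5 arrays (columns), in separate panels for MMP, ADAMTS and TIMP genes, with red above and blue below the median array. Strong colours are limited to a few rows, with ADAMTS1, TIMP3 and TIMP4 highest on the siNT array and MMP1 and TIMP2 highest on the siAURKA-1 array.

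In the 5 comparisons of the design (each siRNA minus siNT, MLN8237 minus DMSO, siNT minus DMSO, and siAURKA-1 minus siAURKA-2), 3 members (6.82%) were at least 2-fold different in 1 or more, as were 3.77% of all genes. They were ADAMTS1, ADAMTS6 and TIMP4. Promoter sequences of ADAMTS6 and TIMP4 are shown because these genes were lower than siNT with an AURKA siRNA and are in the RefSeq promoter table (GRCh38.p14, from 250 bases before to 50 bases after the start site). Each is written 5′ to 3′ on the strand of its gene. Capitals mark AGGAAG, a sequence bound by ETS factors, or TGAGTCA, a site of AP-1 (FOS and JUN dimers), on either strand. The ADAMTS6 window lies at chr5:65481871-65482170 on the minus strand and the TIMP4 window at chr3:12158863-12159162 on the minus strand.
ADAMTS6: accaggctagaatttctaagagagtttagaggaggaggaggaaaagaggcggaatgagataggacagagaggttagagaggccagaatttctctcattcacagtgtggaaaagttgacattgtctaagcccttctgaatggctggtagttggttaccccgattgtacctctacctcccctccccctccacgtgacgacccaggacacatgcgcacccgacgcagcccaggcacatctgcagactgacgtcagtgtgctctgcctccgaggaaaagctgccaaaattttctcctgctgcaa
TIMP4: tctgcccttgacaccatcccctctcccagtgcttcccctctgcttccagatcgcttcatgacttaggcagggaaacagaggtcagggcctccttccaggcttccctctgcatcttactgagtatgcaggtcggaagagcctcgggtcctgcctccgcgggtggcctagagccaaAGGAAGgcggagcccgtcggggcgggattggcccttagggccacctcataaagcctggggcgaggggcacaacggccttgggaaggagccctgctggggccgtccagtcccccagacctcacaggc
The TIMP4 window held 1 match to AGGAAG, whose first base lies at -76 from the start site, and the ADAMTS6 window held none to either motif. Of the 25 members with a promoter in that table, 6 held AGGAAG (24%), against 33.7% of all promoters, and 1 held TGAGTCA (4%), against 4.92%. That member was MMP7, encoding matrilysin, with TGAGTCA on its own strand beginning at -67. A match describes the letters in the window and not the binding of a factor. Only these exact letters were searched, so a window without a match can still hold other forms of ETS or AP-1 sites.

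Among the ADAMTS genes, ADAMTS1 differed most. It encodes a protease that cleaves versican and aggrecan and that inhibits angiogenesis. ADAMTS1 stood at -0.26 (siAURKA-1), -0.20 (siAURKA-2) and 0.61 (MLN8237), against 0.97 (siNT) and -0.01 (DMSO). The siNT array was the highest, MLN8237 the next, and both AURKA siRNA arrays lay slightly below DMSO. Because bulk RNA was measured, fewer cells with a transcript and less of it per cell cannot be told apart. Relative to siNT, the gene was lower by 2.34-fold with siAURKA-1 (log2 difference -1.23) and by 2.26-fold with siAURKA-2 (-1.18). Both comparisons use the same siNT array and are not independent of each other. Set against DMSO, the same arrays differed by -0.25 and -0.19, while siNT itself was 0.98 above DMSO, a difference reached by 0.24% of all genes. With MLN8237 ADAMTS1 was 1.53-fold higher than with DMSO (0.62), and its difference from siNT was -0.37. Its 2 probe sets shared the direction of each of these differences from siNT, at -1.30 and -1.16 for siAURKA-1 and at -1.21 and -1.14 for siAURKA-2. Against DMSO they did not for siAURKA-1 (-0.51 and 0.01).

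ADAMTS6 and ADAMTS12, like ADAMTS1, were highest on the siNT array and lowest on the siAURKA-1 array. ADAMTS6, a close relative of the fibrillin-binding ADAMTS10, stood at -0.60 (siAURKA-1), -0.05 (siAURKA-2) and 0.17 (MLN8237), against 0.41 (siNT) and -0.09 (DMSO). With siAURKA-1 it was 2.02-fold below siNT (-1.01) and -0.52 from DMSO. With siAURKA-2 it differed by -0.46 from siNT and by 0.04 from DMSO. The difference rested on 1 of its 2 probe sets, which gave -1.89 for siAURKA-1 minus siNT where the other gave -0.13. ADAMTS12, which cleaves cartilage oligomeric matrix protein, stood at -0.32 (siAURKA-1), -0.14 (siAURKA-2) and 0.13 (MLN8237), against 0.44 (siNT) and 0.00 (DMSO). It differed from siNT by -0.77 and -0.59 with siAURKA-1 and siAURKA-2. Here too the probe sets diverged, with -1.67 and 0.14 for siAURKA-1 minus siNT and -1.26 and 0.08 for siAURKA-2 minus siNT. For both genes 1 probe set was much flatter over the arrays than the other, and the gene value, a median of 2 probe sets, lies midway between them.

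**Figure D2:**
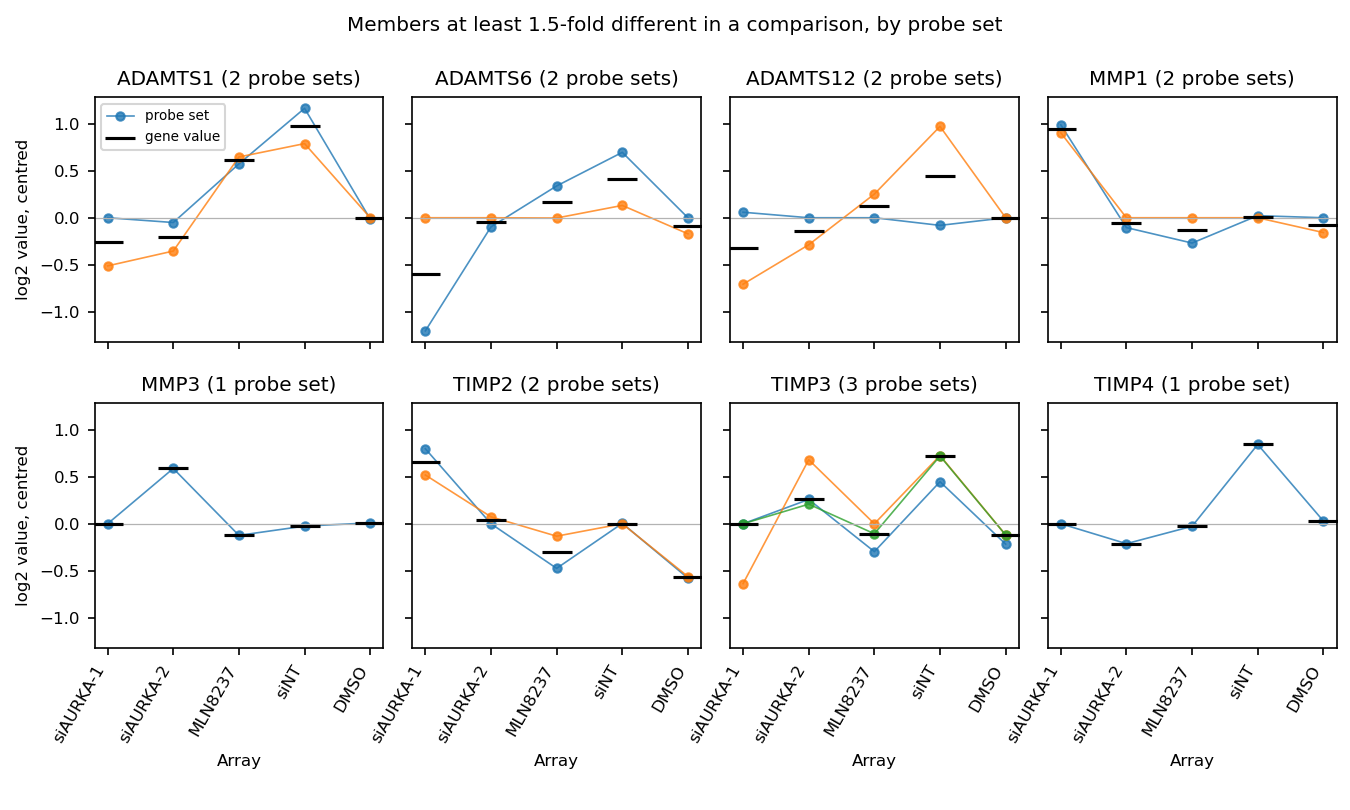
Centred log2 value (vertical axis) on each of the 5 arrays (horizontal axis) for the 8 members at least 1.5-fold different in a comparison. Coloured points joined by lines are single probe sets, and black bars are the gene value. The probe sets of ADAMTS1 have the same highest array but lie apart on siAURKA-1 (0.00 and -0.51), those of ADAMTS6 and ADAMTS12 part on the siAURKA-1 and siNT arrays, and 1 of the 3 probe sets of TIMP3 lies below the others on siAURKA-1 (-0.64) and above them on siAURKA-2 (0.68).

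Of the 22 MMP genes, 0 were 2-fold from siNT with either siRNA, where 1.96% (siAURKA-1) and 1.26% (siAURKA-2) of all genes were. MMP1, the interstitial collagenase that cleaves fibrillar collagen, was the highest of all members with siAURKA-1. It stood at 0.94 (siAURKA-1), -0.05 (siAURKA-2) and -0.13 (MLN8237), against 0.01 (siNT) and -0.08 (DMSO). The siAURKA-1 array stood alone and the other 4 arrays lay close together. MMP1 was 1.91-fold higher with siAURKA-1 than with siNT (0.93), 2.03-fold higher than with DMSO (1.02) and 1.995-fold higher than with siAURKA-2 (0.996), whereas siAURKA-2 differed from siNT by -0.06. Its 2 probe sets gave 0.96 and 0.90 for siAURKA-1 minus siNT.

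MMP3, stromelysin, which degrades proteoglycans and activates other precursor MMPs, showed the other siRNA apart. It stood at 0.00 (siAURKA-1), 0.59 (siAURKA-2) and -0.12 (MLN8237), against -0.02 (siNT) and 0.01 (DMSO). With siAURKA-2 it was 1.53-fold higher than with siNT (0.61) and 1.49-fold higher than with DMSO (0.58), read by a single probe set. MMP1 and MMP3 are next to each other within a run of 9 MMP genes on chromosome 11 that have no other protein-coding gene between them (MMP7, MMP20, MMP27, MMP8, MMP10, MMP1, MMP3, MMP12 and MMP13, in the order of the RefSeq annotation). The median of these 9 was 0.00 for siAURKA-1 minus siNT and -0.06 for siAURKA-2 minus siNT. Apart from MMP1 and MMP3, none of the run reached 1.5-fold with either siRNA.

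MMP14, MMP2 and TIMP2 encode proteins that act together, since the membrane-bound MMP14 activates the precursor of the gelatinase MMP2 on a scaffold of TIMP2. MMP14 stood at 0.44 (siAURKA-1), 0.02 (siAURKA-2) and -0.32 (MLN8237), against 0.00 (siNT) and -0.04 (DMSO). It was 1.36-fold higher with siAURKA-1 than with siNT, with all 4 probe sets higher (0.23 to 0.53), and 1.21-fold lower with MLN8237 than with DMSO, with all 4 lower (-0.28 to -0.10). MMP2 stood at 0.40 (siAURKA-1), -0.06 (siAURKA-2) and -0.05 (MLN8237), against 0.20 (siNT) and 0.00 (DMSO). For MMP2, as for MMP14, the siAURKA-1 array was the highest. MMP2 differed from siNT by 0.20 with siAURKA-1 and by -0.26 with siAURKA-2. Its 4 probe sets for siAURKA-1 minus siAURKA-2 gave 0.03 to 1.10, with a gene value of 0.47. Of these probe sets 2 were past 2-fold, where 3.26% of all probe sets naming 1 gene were.

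TIMP2 stood at 0.66 (siAURKA-1), 0.04 (siAURKA-2) and -0.30 (MLN8237), against 0.00 (siNT) and -0.57 (DMSO). The arrays lay in a graded order with siAURKA-1 highest and DMSO lowest. TIMP2 was 1.57-fold higher with siAURKA-1 than with siNT (0.65) and level with it under siAURKA-2 (0.03). Against DMSO it was higher on every other array, by 1.23 (siAURKA-1), 0.61 (siAURKA-2), 0.27 (MLN8237) and 0.57 (siNT). Its 2 probe sets gave 1.37 and 1.08 for siAURKA-1 minus DMSO.

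The other inhibitors went different ways. TIMP1, a widely expressed inhibitor of most secreted MMPs, stood at 0.55 (siAURKA-1), 0.00 (siAURKA-2) and -0.31 (MLN8237), against 0.16 (siNT) and -0.05 (DMSO). It was 1.32-fold higher with siAURKA-1 than with siNT (0.40) and 1.52-fold higher than with DMSO (0.61). Of its 3 probe sets, 2 gave 0.42 and 0.31 for siAURKA-1 minus siNT and the other -0.09. Like MMP14 and MMP2, TIMP1 and TIMP2 were highest on the siAURKA-1 array, which alone was highest in 27.8% of all genes.

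TIMP3, which binds to the extracellular matrix and also inhibits ADAM and ADAMTS proteases, was highest on the siNT array. It stood at 0.00 (siAURKA-1), 0.26 (siAURKA-2) and -0.11 (MLN8237), against 0.72 (siNT) and -0.12 (DMSO). With siAURKA-1 it was 1.65-fold below siNT (-0.72) and with siAURKA-2 1.38-fold below it (-0.46), but 0.12 and 0.38 above DMSO. Its 3 probe sets for siAURKA-1 minus siNT gave -1.36, -0.72 and -0.45, and for siAURKA-2 minus siNT -0.04, -0.51 and -0.19.

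TIMP4, the member of the family with the most restricted tissue distribution, stood at 0.00 (siAURKA-1), -0.21 (siAURKA-2) and -0.03 (MLN8237), against 0.84 (siNT) and 0.03 (DMSO). The siNT array was alone and high, and the other 4 arrays were close together. Relative to siNT, TIMP4 was lower by 1.79-fold with siAURKA-1 (-0.84) and by 2.07-fold with siAURKA-2 (-1.05), and the differences from DMSO were -0.03 and -0.24. It was read by a single probe set. TIMP1, TIMP3 and TIMP4 each lie within a synapsin gene (SYN1, SYN3 and SYN2) in the RefSeq annotation.

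Counted over all members relative to siNT, siAURKA-1 gave 0 at least 2-fold higher and 2 at least 2-fold lower (ADAMTS1 and ADAMTS6), where 1.96% of all genes differed at least 2-fold and 1.38% were lower. With siAURKA-2, 0 were higher and 2 lower (ADAMTS1 and TIMP4), where 1.26% of all genes differed and 0.872% were lower. Each of these counts is 4.55% of the 44 members. At 1.5-fold, 7 members differed with siAURKA-1 (15.9%, against 7.05% of all genes). Of these MMP1 and TIMP2 were higher, where 2.57% of all genes were, and ADAMTS1, ADAMTS6, ADAMTS12, TIMP3 and TIMP4 lower, where 4.48% of all genes were. With siAURKA-2, 4 differed at 1.5-fold (9.09%, against 5.08%), with MMP3 higher, as were 1.96% of all genes, and ADAMTS1, ADAMTS12 and TIMP4 lower, as were 3.11%. Over members the median difference from siNT was 0.00 (siAURKA-1) or -0.02 (siAURKA-2), and over all genes it was 0.00 for each.

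These counts depended on the control array. Against DMSO in place of siNT, siAURKA-1 gave 2 members at least 2-fold higher, MMP1 and TIMP2, and 0 lower, where 0.735% of all genes were higher and 1.77% differed. Against DMSO, siAURKA-2 gave 0 members at 2-fold, where 1.28% of all genes differed, and TIMP2 alone at 1.5-fold, where 5.21% of all genes differed. The control arrays themselves differed by at least 1.5-fold in 3 members, all higher with siNT than with DMSO (ADAMTS1, TIMP3 and TIMP4, 6.82% of members), where 2.08% of all genes differed by that much and 1.53% were higher. At 2-fold 0 members differed between the controls, where 0.296% of all genes did. Each of the 4 TIMP genes was higher with siNT than with DMSO, by 0.21 to 0.84. The smallest of these, that of TIMP1, was reached by 10.7% of all genes. For TIMP1, 1 of the 3 probe sets gave 0.00, and TIMP4 was read by a single probe set. Transfection against vehicle and array-to-array variation cannot be told apart in this pair of control arrays.

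**Figure D3:**
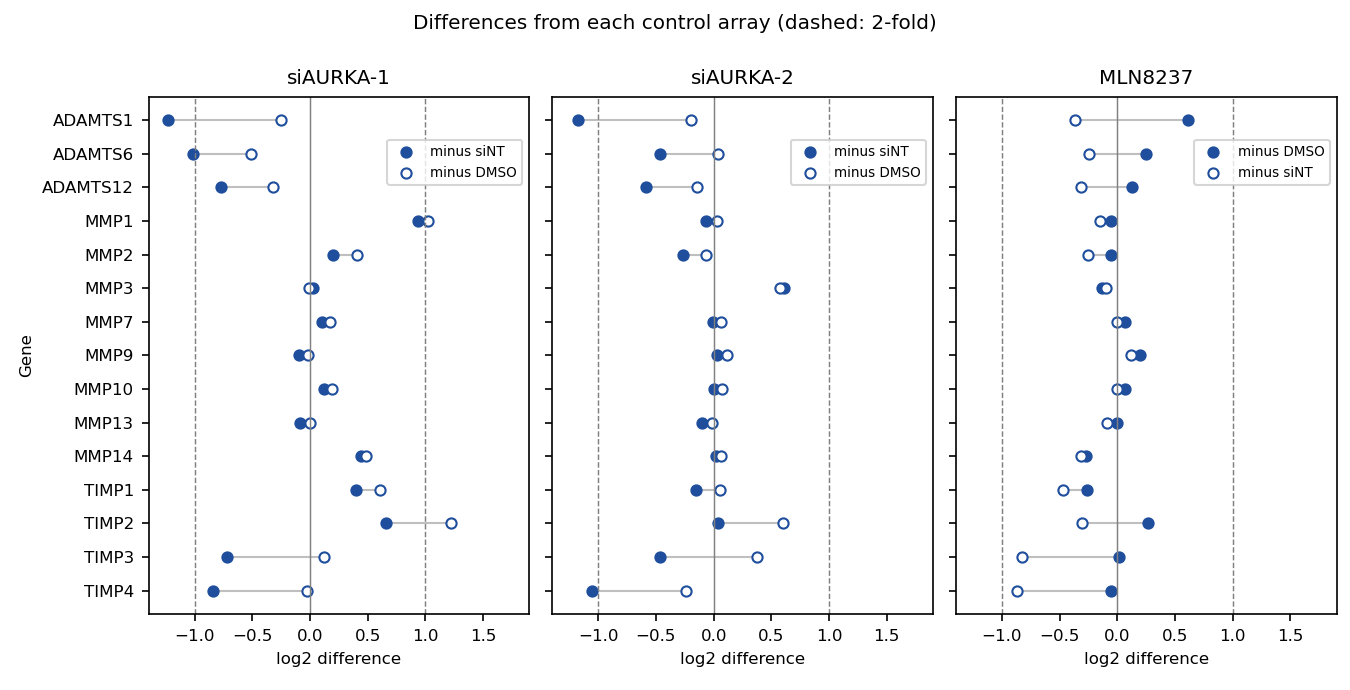
Log2 difference (horizontal axis) of the siAURKA-1, siAURKA-2 and MLN8237 arrays from each control array for 15 members (rows), with filled points for the control given in the design and open points for the other control. For siAURKA-1 the points of ADAMTS1, TIMP3 and TIMP4 lie far left against siNT and between -0.25 and 0.12 against DMSO, while those of MMP1 stay together near 1 and that of TIMP2 lies past 2-fold against DMSO.

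The kinase inhibitor gave smaller differences. With MLN8237, 0 members differed at least 2-fold from DMSO, where 0.0658% of all genes did, and ADAMTS1 alone reached 1.5-fold (2.27% of members, against 0.482% of all genes). The lowest value was that of MMP14 (-0.27), followed by TIMP1 (-0.26), and TIMP2 was among the higher ones (0.27). Against siNT, TIMP3 and TIMP4 differed by -0.83 and -0.87, close in size to their differences between siNT and DMSO (0.84 and 0.81), which use the same siNT array.

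Compared directly, the siRNA arrays differed by at least 2-fold in 0 members, where 2.16% of all genes did, and by at least 1.5-fold in 3 members (6.82%, against 7.66% of all genes). MMP1 and TIMP2 were higher with siAURKA-1 than with siAURKA-2, by 0.996 and 0.62. MMP3 was lower with siAURKA-1, at -0.59. ADAMTS1 differed between the siRNA arrays by -0.05.

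The remaining MMPs of the named set were close to level. MMP9, the larger gelatinase, ranged from -0.10 with siAURKA-1 to 0.12 with MLN8237, read by 1 probe set. MMP7, MMP10, a stromelysin, and MMP13, a collagenase, spanned 0.17, 0.19 and 0.10 over the arrays. The other 29 members differed from siNT by -0.24 (ADAMTS8) to 0.30 (MMP15, a membrane-type MMP) with siAURKA-1 and by -0.35 (MMP12, the macrophage elastase) to 0.21 (ADAMTS17) with siAURKA-2. With MLN8237 they differed from DMSO by -0.21 (MMP26) to 0.12 (ADAMTS4, an aggrecanase), and between the controls by -0.15 (MMP17) to 0.15 (MMP27). The procollagen N-propeptidase genes ADAMTS2, ADAMTS3 and ADAMTS14 were among these 29.

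Genes that activate, restrain or regulate these proteases were described from 8 further lists. Of 14 other regulators and inhibitors, SPOCK1 and THBS1 (14.3%) reached 2-fold in 1 or more of the 5 comparisons, against 3.77% of all genes. SPOCK1, encoding the proteoglycan testican, stood at 0.32 (siAURKA-1), 0.00 (siAURKA-2) and -0.08 (MLN8237), against 1.16 (siNT) and -0.46 (DMSO). Like ADAMTS1, TIMP3 and TIMP4 it was highest on the siNT array, and its differences from siNT were -0.83 and -1.16 with siAURKA-1 and siAURKA-2. Against DMSO they had the opposite sign, at 0.78 and 0.46. SPOCK1 was read by a single probe set. THBS1, encoding thrombospondin, was lower than siNT with both siRNAs (-1.50 and -1.15) and lower than DMSO as well (-1.13 and -0.77).

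Of 11 measured plasmin system genes, 1 (9.09%) reached 2-fold in any of the 5 comparisons, against the same 3.77% of all genes. PLAU, the urokinase plasminogen activator, which generates plasmin that activates precursor MMPs, stood at 0.00 (siAURKA-1), -0.38 (siAURKA-2) and 0.16 (MLN8237), against 0.33 (siNT) and -0.83 (DMSO). The DMSO array was the lowest and siAURKA-2 the next. PLAU was 0.99 higher with MLN8237 and 1.16 higher with siNT than with DMSO, and siAURKA-2 differed from siNT by -0.72. The 6 proprotein convertases with a value, 16 ADAM genes, 7 ADAMTS-like genes with papilin and 6 astacins had 0 members at 2-fold in any of the 5 comparisons. Of these, ADAM10, a sheddase named after its values were seen, was the one at least 1.5-fold different from siNT with siAURKA-1 (0.74), and it was past 2-fold against DMSO (1.03).

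Of 14 matrix substrate genes, TNC (tenascin C) and SPARC differed at least 2-fold between the siRNAs (14.3%, against 2.16% of all genes). TNC differed from siNT by 0.50 (siAURKA-1) and -1.23 (siAURKA-2), and SPARC by 0.78 and -0.84. Against DMSO the differences were 1.11 and -0.61 for TNC and 1.04 and -0.58 for SPARC, so that siAURKA-1 reached 2-fold and siAURKA-2 did not. VCAN (versican), named after its values were seen, went the other way, at -0.60 for siAURKA-1 minus siAURKA-2. Of 18 AP-1 and ETS factor genes, 2 (11.1%) were at least 2-fold lower than siNT with siAURKA-1, where 1.38% of all genes were. FOSL1, an AP-1 subunit, differed from siNT by -1.22 with siAURKA-1 and by 0.02 under siAURKA-2, and the ETS factor gene FLI1 gave -1.07 and 0.04. Against DMSO neither reached 2-fold with siAURKA-1 (-0.91 for FOSL1 and -0.98 for FLI1). On the same siAURKA-1 array MMP1 was 0.93 above siNT. Any relation between these values was not tested.

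**Figure D4:**
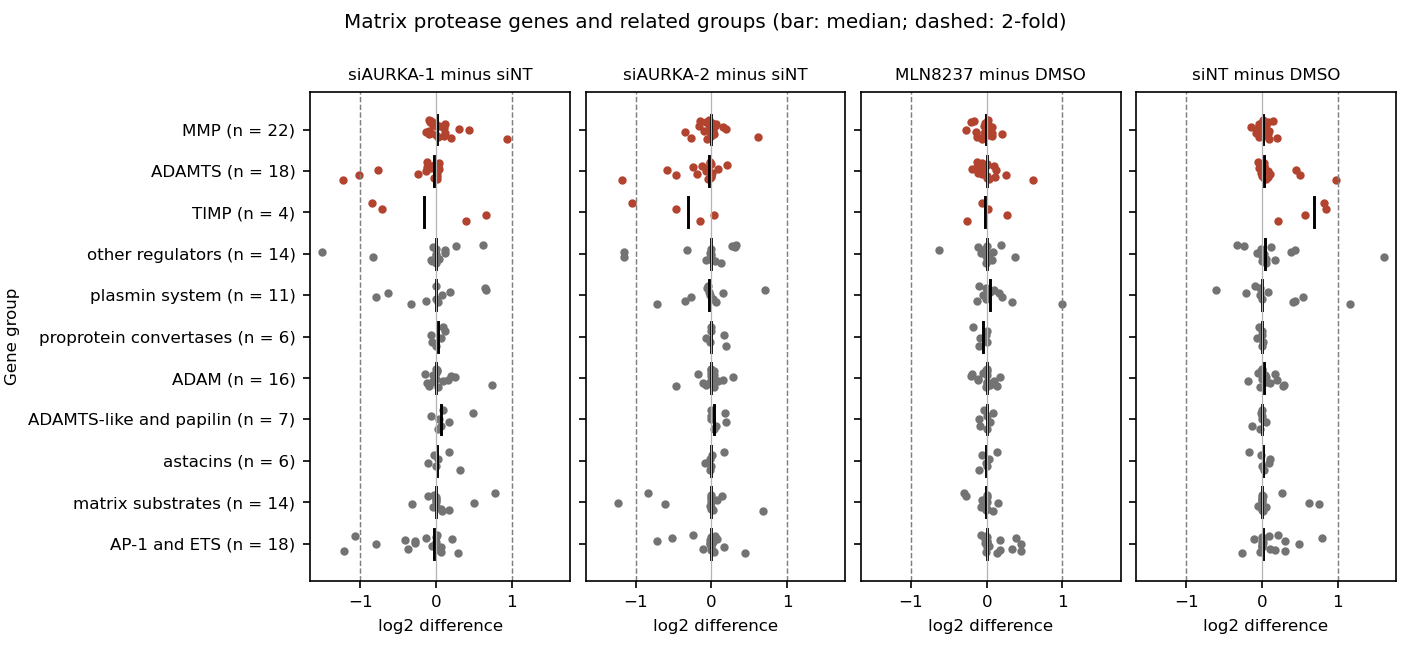
Log2 differences (horizontal axis) of single genes (points) in the MMP, ADAMTS and TIMP families (red) and in 8 related lists (grey), for 4 comparisons, with black bars for the median of each list. Medians lie near 0 except for the 4 TIMP genes, whose median is 0.69 for siNT minus DMSO and -0.31 for siAURKA-2 minus siNT.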

How the data were processed

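Total RNA was profiled on Affymetrix GeneAtlas arrays, 1 per treatment, per the labels. The deposited values are taken as log2 signals summarised by RMA, per the submitters' processing notes. RMA corrects background, normalizes quantiles and summarises probes. The sources used here give no version, software or log base. Each of the 49386 probe sets had a median of 0 over the 5 arrays, so the authors' values had been centred. Of the probe sets, 45259 named 1 gene in the platform annotation, and symbols were updated by Entrez number. A gene's value on an array was the median of its probe sets (100 for the 44 members, 13 of which had a single probe set). Differences between arrays were computed with Python 3.11.15 and pandas 2.3.3, and the code was tested on simulated data. Groups follow the treatment in the labels. With 1 array per group no test was run, and precision is limited by the number of arrays. Calls used 2-fold, with 1.5-fold and 3-fold as alternatives. Members, lists and rules were chosen with earlier results of these data known. Members were named in full if at least 1.5-fold different in a comparison, or if on a list of 13 TIMP, MMP and ADAMTS genes. From each further list up to 4 genes at least 2-fold different were named. Proteins were not used here, so a planned search of protein motifs was not run.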

Additional observations from a re-analysis of the deposited data

How the results depend on the processing

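Counts of members at least 2-fold different were 2 for siAURKA-1 minus siNT, 2 for siAURKA-2 minus siNT, and 0 each for MLN8237 minus DMSO, siNT minus DMSO and siAURKA-1 minus siAURKA-2. These counts were the same with each array centred on its median, with the mean of probe sets, with the median of probe set differences, without probe sets ending in _x_at and with probe sets naming several genes added. The members counted, ADAMTS1, ADAMTS6 and TIMP4, have 1 or 2 probe sets each, and no name ends in _x_at. Means, medians of differences and dropping _x_at therefore could not change their calls, only those of other members. Centring the arrays left ADAMTS1 at -1.23 for siAURKA-1 minus siNT. At 1.5-fold the counts were 7, 4, 1, 3 and 3, and at 3-fold 0 in every comparison. The share of all genes at 3-fold was not counted, so those counts have no background. The control array changed which members were counted. With DMSO as control siAURKA-1 again had 2 members, but both higher (MMP1 and TIMP2) instead of both lower, and siAURKA-2 had 0. With the mean of both control arrays each siRNA had 0, where 1.64% (siAURKA-1) and 0.976% (siAURKA-2) of all genes differed. Taking the probe set with the highest standard deviation over the arrays, an alternative chosen after the values were seen, gave 4 members for siAURKA-1 minus siNT (4.22% of all genes passed by this choice), 3 for siAURKA-2 minus siNT (3.05%) and 4 for siAURKA-1 minus siAURKA-2 (4.93%). ADAMTS6 was then at -1.89, ADAMTS12 at -1.67 and TIMP3 at -1.36 for siAURKA-1 minus siNT. Of 540 differences of named members under an alternative, 66 moved by more than 0.195, the standard deviation of siNT minus DMSO over all genes. The share depended on the setting. All 75 stayed within it with arrays centred, and all 75 with probe sets naming several genes added. For siAURKA-1 minus siNT, both settings left every named member at its main value, so they say little about stability. With DMSO as control 16 moved and 14 did not, and with siNT as control 8 moved and 7 did not. With the mean of both controls 18 moved and 27 did not. None of the 4 differences of 2-fold or more changed sign. Smaller ones did under the other control. ADAMTS1 with MLN8237 was 0.62 against DMSO and -0.37 against siNT. TIMP3 was -0.72 against siNT and 0.12 against DMSO with siAURKA-1, and -0.46 and 0.38 with siAURKA-2. TIMP1 was 0.17 for siAURKA-1 minus siNT without its _x_at probe set. No paired analysis was possible because each group has 1 array. The values hold no expression level, so a filter on dim probe sets could not be applied.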
